A study of Mus musculus with 9 samples.

Results

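The 9 genes examined here serve serotonin and dopamine neurons: Tph2, Slc6a4, Fev, Slc6a3, Slc10a4, Gch1, Pts, Qdpr and Maob. The array's own annotation lists them as TPH2, SLC6A4, FEV, SLC6A3, SLC10A4, GCH1, PTS, QDPR and MAOB, and all probes under one of these names were taken. This gave 15 of the 45281 probes and 9 of the 30854 names on the array. Of these, 6 genes have a pair of probes and 3 genes have 1 probe. The levels were measured in total RNA from 3 regions of the brainstem, labelled as a dorsal, a ventral and a target region, on 9 arrays (n = 3 for each). The donors were 3 male mice, 8 weeks old, each of which gave all 3 regions, so that the regions differ in location and share genotype, sex and age. All mice were of the Chat-Cre:Ai9 strain, in which the choline acetyltransferase gene Chat drives Cre recombinase in cholinergic cells and the Ai9 reporter allele turns on red fluorescence (tdTomato) in cells that have had Cre. Nothing in the labels says that cells were sorted, that any agent was given, how the tissue was cut out or what the target region was.

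Serotonin is made from tryptophan and dopamine from tyrosine, each by a hydroxylase that needs the cofactor tetrahydrobiopterin and then by a shared decarboxylase. A vesicular transporter loads the amine into vesicles, a plasma membrane transporter takes it back up after release, and monoamine oxidases break it down. In the brainstem the serotonin neurons lie mainly in the raphe nuclei along the midline, and the dopamine neurons lie mainly in the ventral midbrain, with a smaller group in the dorsal raphe. Tetrahydrobiopterin is also used by the noradrenaline neurons of the pons and medulla, and several of the cofactor enzymes are made in many other cells.

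Between 16703 and 19945 probes per array were above background, which is 36.9% to 44.0% of the probes. A probe counts as above background where its detection p, a comparison with the negative control beads of the same array, is below 0.05. Levels are log2 intensities after background correction and quantile normalization, and the dimmest probe above background read from 5.55 to 5.90 depending on the array. Probes above background on at least 3 of the 9 arrays, 20461 in all, were tested. The unnormalized medians were 146 to 168 in dorsal, 166 to 231 in ventral and 160 to 219 in target, with ventral arrays 1 and 2 and target array 3 above 200. With 3 arrays a region, precision is limited by their number throughout.

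The genes of the serotonin and dopamine transporters and Fev were not above background in any region. Tph2 was above background on 4 of 9 arrays, while Pts and Qdpr, enzymes that many other cells make, were above it on all 9. Of the 15 probes, 7 were above background on 0 of the 9 arrays, and they include every probe of Slc6a4, Fev and Slc6a3. Over all probes of the array, 41.0% were above background on no array. The other 8 probes, of 6 genes, were tested: 1 each of Tph2, Slc10a4, Pts and Qdpr and 2 each of Maob and Gch1. In these bulk samples fewer cells of a type and less RNA per cell cannot be told apart, and a probe below background does not show that its transcript is absent.

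**Figure D1:**
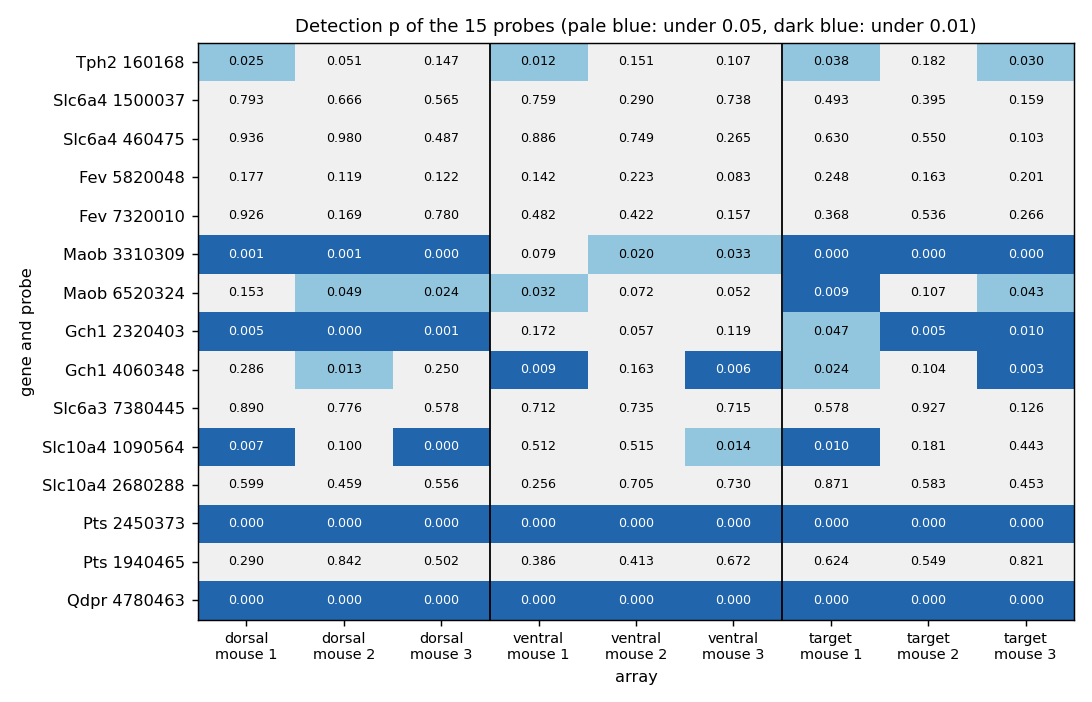
Detection p of the 15 probes (rows, gene and probe number) on the 9 arrays (columns, region and mouse), with pale blue for values below 0.05 and dark blue for values below 0.01. Only the first Pts probe and the Qdpr probe are blue on all 9 arrays, and the rows of Slc6a4, Fev and Slc6a3 have no blue cell.

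Tph2 encodes the tryptophan hydroxylase of neurons, which sets the rate of serotonin synthesis. Its probe (160168) read 5.90, 5.60 and 5.27 in dorsal mice 1 to 3, 6.22, 5.44 and 5.45 in ventral, and 5.76, 5.26 and 6.05 in target. It was above background on 1 dorsal, 1 ventral and 2 target arrays, and the regions overlapped fully. No region stood out: the means were 5.59 ± 0.31 (SD, n = 3) in dorsal, 5.70 ± 0.45 in ventral and 5.69 ± 0.40 in target. The difference between target and dorsal was 0.10 (SE 0.30, 95% interval -0.57 to 0.76, limma adjusted p = 0.946), and that between target and ventral was -0.02 (interval -0.68 to 0.65, adjusted p = 0.986).

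Slc6a4 encodes the plasma membrane serotonin transporter, and Fev encodes Pet-1, a transcription factor of the ETS family that serotonin neurons need to acquire and keep their identity. The 2 Slc6a4 probes read 4.78 to 5.41 (1500037) and 4.57 to 5.59 (460475), with detection p from 0.103 to 0.980. Their highest values were both on target array 3, where the detection p was 0.159 and 0.103. The 2 Fev probes read 5.21 to 5.54 (5820048) and 4.65 to 5.34 (7320010), and the lowest detection p among them was 0.0833, for the former on ventral array 3. None of these 4 probes has a level that can be ranked between regions, since all lay below the background limit.

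Slc6a3 encodes the plasma membrane dopamine transporter, which among brainstem neurons marks the dopamine cells. Its probe (7380445) read 4.65 to 5.50 over the 9 arrays, with detection p from 0.126 to 0.927. As for both Slc6a4 probes, the highest value came from target array 3. That array is among the 3 with an unnormalized median above 200.

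Slc10a4 encodes an orphan transporter of the bile acid transporter family that sits on synaptic vesicles of monoamine and cholinergic neurons. Its tested probe (1090564) read 6.20, 5.43 and 6.98 in dorsal, 5.01, 4.97 and 6.06 in ventral, and 6.10, 5.26 and 5.06 in target. It was above background on 2 dorsal, 1 ventral and 1 target array, and the regions overlapped. The dorsal level was higher than the ventral level of the same mouse in 3 of 3 mice, by 1.18, 0.46 and 0.92. The difference of 0.85 did not pass the test (SE 0.45, 95% interval -0.17 to 1.88, limma adjusted p = 0.317). It ran from 0.46 to 1.24 when 1 array was left out and was as low as 0.14 under the other alternatives. Target lay below dorsal in 3 of 3 mice, by -0.09, -0.17 and -1.92, and this difference did not pass either (-0.73, SE 0.45, adjusted p = 0.653, from -1.11 to -0.34 when 1 array was left out). The other Slc10a4 probe (2680288) was above background on 0 of 9 arrays, with levels of 4.71 to 5.26.

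The cofactor enzymes were followed next, in the order of the pathway. Gch1 encodes GTP cyclohydrolase 1, the first and rate-limiting enzyme of tetrahydrobiopterin synthesis. Its 2 probes disagreed. Probe 2320403 read 6.28, 6.88 and 6.23 in dorsal, 5.41, 5.82 and 5.43 in ventral and 5.70, 6.12 and 6.33 in target, and it was above background on all dorsal and target arrays and on 0 of 3 ventral arrays. By this probe the dorsal level was higher than the ventral level in every mouse, by 0.87, 1.06 and 0.80, and the arrays of these regions did not overlap. With ventral at background the fold is a bound, at least 1.58-fold, and the test was missed narrowly (measured means 6.46 and 5.55, limma adjusted p = 0.0585, with alternatives giving 0.0167 to 0.759). Between target and ventral the same bound was 1.19-fold, but these arrays overlapped, with target mouse 1 at 5.70 and ventral mouse 2 at 5.82. The measured difference was 0.5 (interval -0.07 to 1.06, limma adjusted p = 0.379), so a higher level in target was not established. Target lay 0.41 below dorsal (difference -0.41, SE 0.25, adjusted p = 0.639).

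Gch1 probe 4060348 gave another order. It read 5.17, 5.91 and 5.15 in dorsal, 6.32, 5.41 and 6.25 in ventral and 5.93, 5.43 and 6.53 in target, with 1, 2 and 2 arrays above background. Dorsal was the lowest region by its mean, and dorsal minus ventral was -0.58 (SE 0.36, adjusted p = 0.392). Per array, the former probe minus this probe averaged 1.05 in dorsal and -0.44 in ventral. An exact permutation of the arrays gave p = 0.1 for this, the smallest possible with 3 arrays a region (0.15 adjusted over 6 probe-pair comparisons). Since the probes disagree in sign and the former is at background in ventral, no region difference is given for Gch1 as a gene, and the mean of its 2 probes differed by 0.16 between dorsal and ventral (adjusted p = 0.759).

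Pts encodes 6-pyruvoyltetrahydropterin synthase, the second enzyme of the pathway, and Qdpr encodes dihydropteridine reductase, which returns the used cofactor to its active form. Both were above background on 9 of 9 arrays, by Pts probe 2450373 and the only Qdpr probe, 4780463, and neither passed in any pair of regions. Pts read 9.45, 9.73 and 9.74 in dorsal, 9.43, 9.49 and 9.62 in ventral and 9.61, 9.46 and 9.56 in target. The largest Pts difference was 0.13, dorsal over ventral (SE 0.16, 95% interval -0.24 to 0.50, limma adjusted p = 0.708). The other Pts probe (1940465) was above background on 0 of 9 arrays, at 4.76 to 5.17.

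Qdpr read 11.85, 11.66 and 11.81 in dorsal, 11.86, 11.53 and 11.62 in ventral and 11.77, 11.84 and 11.80 in target. The 3 regions overlapped, and the spread within target (SD 0.04) was smaller than that within dorsal (0.10) and ventral (0.17). The largest Qdpr difference was 0.13, target over ventral (SE 0.16, 95% interval -0.24 to 0.50, adjusted p = 0.760). The intervals of all 3 Qdpr differences lay between -0.34 and 0.50. These are the narrowest intervals among the 9 genes together with those of Pts, which lay between -0.47 and 0.50.

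Maob encodes monoamine oxidase B, an enzyme of the outer mitochondrial membrane that breaks down dopamine and trace amines and, in the brain, is made by serotonin neurons and by astrocytes. Its brighter probe (3310309) gave the only call among the 8 tested probes, between dorsal and ventral, where 7.98% of all 20461 tested probes were called (4.06% higher in dorsal and 3.92% lower). Before normalization this probe read 263.4, 197.8 and 305.7 in dorsal, 236.3, 265.3 and 184.2 in ventral and 214.4, 246.9 and 308.7 in target, each a mean over 31 to 49 beads with an SE of 3.01% to 6.08%. The unnormalized values of dorsal and ventral overlapped, and 2 of the 3 ventral arrays were among those with a median above 200.

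After background correction and normalization the same probe read 6.95, 6.39 and 7.22 in dorsal, 5.68, 6.12 and 5.82 in ventral and 6.62, 6.68 and 7.14 in target, with 3, 2 and 3 arrays above background. Every dorsal and every target array lay above every ventral array, and dorsal and target overlapped. Dorsal exceeded ventral by 0.98 (1.97-fold, SE 0.26, 95% interval 0.40 to 1.56, limma adjusted p = 0.0494), with differences of 1.27, 0.27 and 1.40 in the 3 mice. Target exceeded ventral by 0.94 (SE 0.26, differences of 0.95, 0.56 and 1.32), which did not pass (adjusted p = 0.108, with alternatives giving 0.0960 to 0.463). Target and dorsal differed by -0.04 (95% interval -0.61 to 0.54, adjusted p = 0.979).

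The Maob call was narrow. Blocking on the mouse gave an adjusted p of 0.0693, and without background correction the difference was 0.38 (adjusted p = 0.0859). Leaving out dorsal array 2 kept the call (1.21, adjusted p = 0.0336), and leaving out any 1 of the other 8 arrays ended it (adjusted p from 0.0526 to 0.155, differences from 0.79 to 1.10). Over all alternatives the adjusted p ran from 0.0125 to 0.273, and the difference stayed above 0 in 18 of 18.

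The dimmer Maob probe (6520324) did not repeat the difference. It read 5.38, 5.62 and 5.70 in dorsal, 5.96, 5.72 and 5.66 in ventral and 6.14, 5.41 and 5.90 in target, with 2, 1 and 2 arrays above background. Dorsal minus ventral was -0.21 (SE 0.22, 95% interval -0.71 to 0.29, adjusted p = 0.632). Per array, the brighter Maob probe minus the dimmer averaged 1.28 in dorsal (0.77 to 1.56) and 0.09 in ventral (-0.28 to 0.40). An exact permutation of the arrays between these regions gave p = 0.1 (0.15 adjusted over 6 probe-pair comparisons). That is the smallest p possible with 3 arrays a region, so this test cannot decide whether the probes differ. Averaged over both probes, dorsal exceeded ventral by 0.38 (adjusted p = 0.273).

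**Figure D2:**
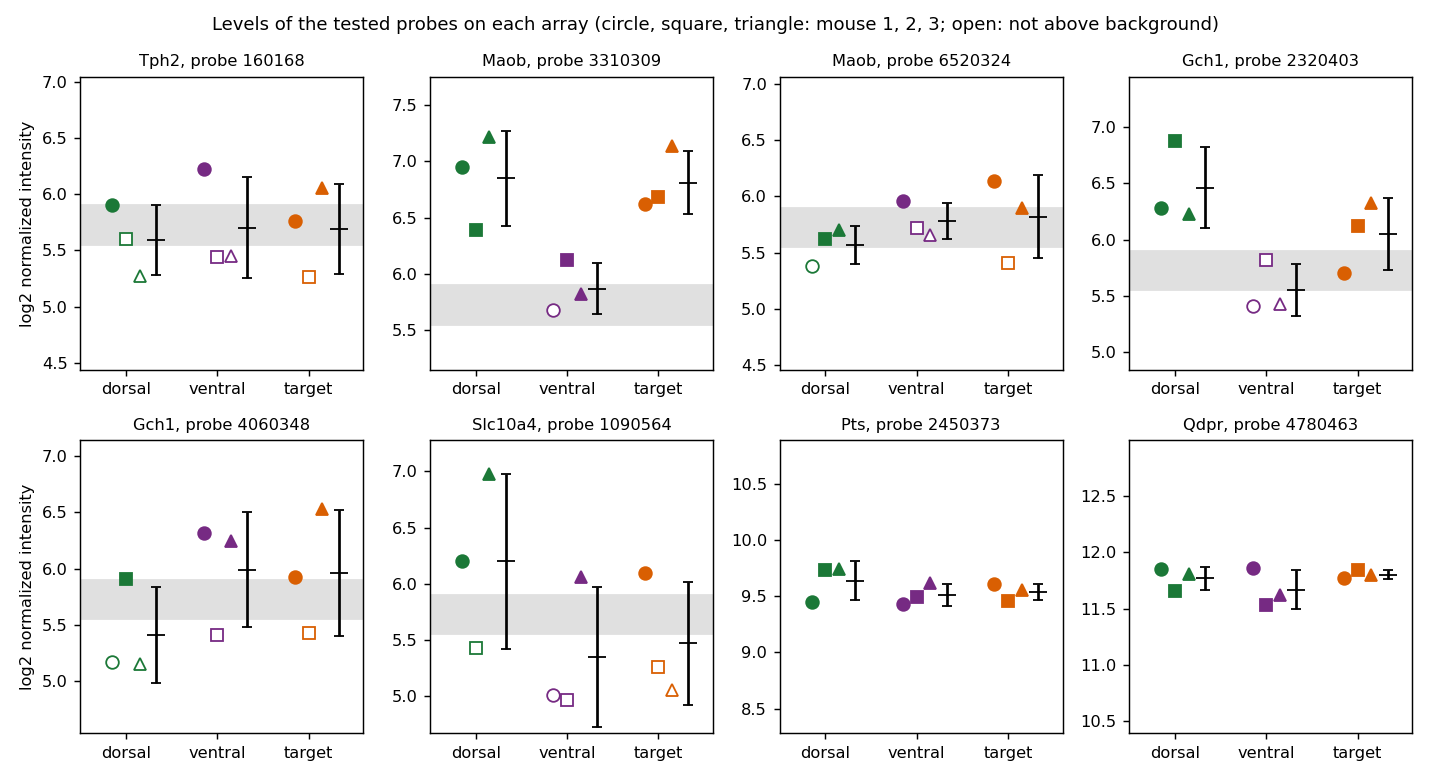
Level on each array of the 8 tested probes, as log2 normalized intensity, by region. Circles, squares and triangles are mice 1, 2 and 3, open symbols were not above background, black bars are means ± SD (n = 3), and the grey band is the range of the lowest level above background (5.55 to 5.90). Each panel spans the same number of log2 units, and levels of different probes cannot be set against each other. The 3 ventral arrays of Maob probe 3310309 lie below all 6 others.

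Set against all tested probes, the 8 probes were called at about the background rate. Between dorsal and ventral 1 of the 8 probes was called against 7.98% of all, and 2 of the 8 had an unadjusted p below 0.05, against 22.2% of all. The same 2 had arrays that did not overlap between the regions (Maob 3310309 and Gch1 2320403), as did 26.7% of all tested probes. Between target and ventral limma called 0 of the 8 against 1.78% of all, with 1 at an unadjusted p below 0.05 against 16%, and 1 of the 8 had no overlap against 21.1%. Between target and dorsal 0 of the 8 were called against 0.0586% of all, with 0 at an unadjusted p below 0.05 against 9.6%, and 0 had no overlap against 17.5%. The test of any difference among the 3 regions called 0 of the 8 against 5.23%, with 2 at an unadjusted p below 0.05 against 19.5%, and Maob 3310309 had its lowest adjusted p (0.0808). The median difference of the 8 probes was 0.11 between dorsal and ventral (0.04 over all tested probes), 0.08 between target and ventral (0.02) and 0.00 between target and dorsal (-0.02).

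**Figure D3:**
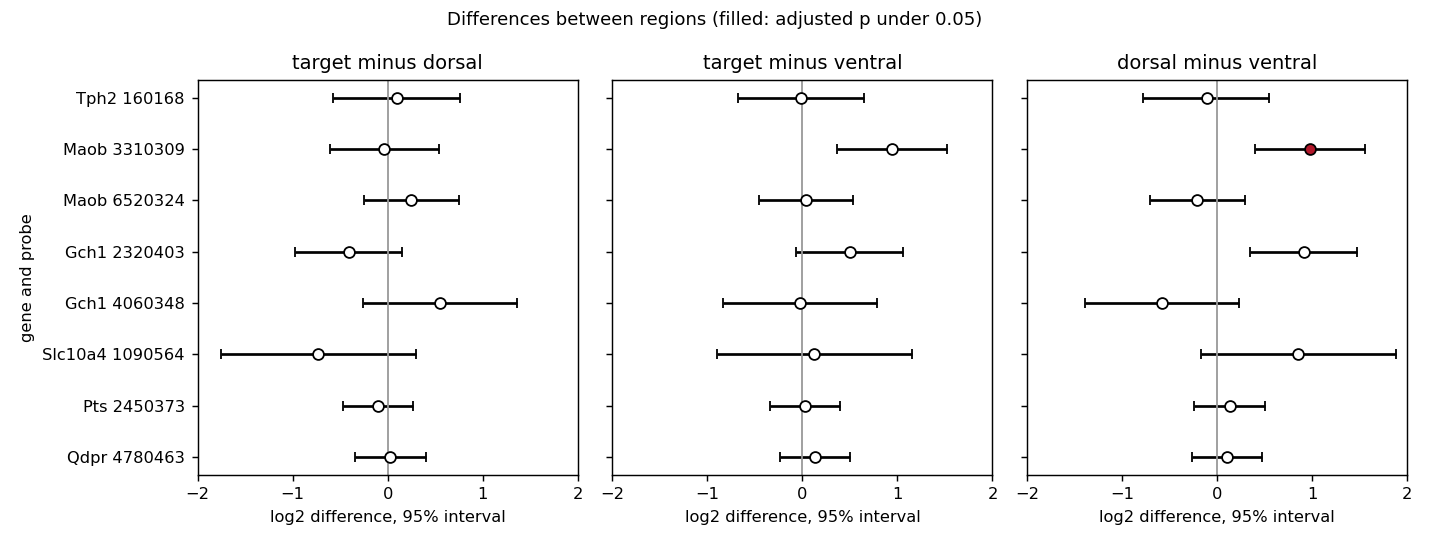
Differences between regions for the 8 tested probes on the log2 scale, with 95% intervals from limma, in 3 panels for the 3 pairs of regions. The filled point is the only difference with an adjusted p below 0.05 (Maob 3310309, dorsal minus ventral, 0.98), and the intervals of Pts and Qdpr are the shortest.

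The rest of the pathway gave a mixed picture of detection. Of 19 genes for the synthesis, transport and identity of serotonin neurons, 9 were tested and 8 were above background on no array, among them Slc6a4, Fev, Tph1, Gata3, Foxa2, En2 and Slc22a3. Ddc, the decarboxylase shared by all monoamine neurons, was above background on 9 of 9 arrays by probe 2340300, and so was Slc18a2, the vesicular monoamine transporter (4480192). Neither gene differed by a passing margin in any pair, and the largest values were 0.58 for Ddc (target over dorsal, adjusted p = 0.588) and -0.39 for Slc18a2 (dorsal minus ventral, adjusted p = 0.696). The other Ddc probes were above background on 0 and 3 of 9 arrays.

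The one gene of this list that passed was Nkx2-2, a transcription factor of ventral neural progenitors, including those of serotonin neurons, and of the oligodendrocyte lineage. Its other probe (6760746) was above background on 0 of 9 arrays, and probe 4880367 read 9.96 ± 0.26 in dorsal, 8.63 ± 0.19 in ventral and 9.94 ± 0.46 in target. Dorsal exceeded ventral by 1.33 (SE 0.26, limma adjusted p = 0.0144, and 0.0404 blocking on the mouse). Target exceeded ventral by 1.31 (adjusted p = 0.0412, and 0.0911 with the block), where 1.17% of all tested probes were called higher in target. The target call ended without any 1 array (adjusted p from 0.0504 to 0.125), and the dorsal call ended without dorsal array 2, dorsal array 3 or ventral array 1 (0.0581, 0.0564 and 0.0501). The median difference over the 9 tested genes of the list was -0.05 between dorsal and ventral, 0.12 between target and ventral and 0.10 between target and dorsal.

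Of 19 genes for dopamine neurons, 9 were tested and 9 were above background on no array: Th, Slc6a3, Pitx3, Lmx1a, Foxa1, Foxa2, Otx2, En2 and Gucy2c. Th, the tyrosine hydroxylase that starts dopamine and noradrenaline synthesis, and Pitx3, a transcription factor of midbrain dopamine neurons, were thus below background in all 3 regions. Limma called 0 of the 9 tested genes in any pair, with 1, 1 and 0 at an unadjusted p below 0.05 between target and dorsal, target and ventral, and dorsal and ventral. Of all tested probes, 9.6%, 16% and 22.2% had such a p in that order of pairs. The medians of the differences of the 9 genes were 0.15, 0.11 and -0.11 in the same order. Among receptors, 0 of 5 tested serotonin receptor genes (of 14) and 0 of 1 tested dopamine receptor gene (of 5) passed in any pair. In the same order of pairs, 1, 2 and 1 serotonin receptor genes had an unadjusted p below 0.05, against the shares of all tested probes just given.

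Noradrenaline neurons share the decarboxylase, the vesicular transporter and the cofactor with the cells above, and their plasma membrane transporter gene did differ. Of 10 genes for these neurons 6 were tested, and Th, Dbh, Phox2a and Pnmt were above background on no array. Slc6a2 was 2.45 higher in target than in ventral by probe 1070279 (SE 0.25, adjusted p = 0.00227, with alternatives giving 0.000182 to 0.164). Between dorsal and ventral this probe differed by 0.97 (adjusted p = 0.0432), a call that ended with the mouse as block (0.0856) and without any 1 array (0.0539 to 0.145). A further Slc6a2 probe (5910717), above background on 0 of 3 ventral arrays, was at least 3.76-fold higher in target and at least 2.53-fold higher in dorsal than in ventral. The test used not these bounds but the measured means, 7.71 in target, 7.14 in dorsal and 4.67 in ventral. By it, target and dorsal each differed from ventral (limma adjusted p = 0.000208 and 0.000393). Gal, the neuropeptide galanin, was 1.44 higher in target than in ventral (adjusted p = 0.0234), which ended with the block (0.0674) and without any 1 of 4 arrays (0.0539 to 0.103). Target also lay above dorsal, without passing, by 1.71 in Gal (limma adjusted p = 0.0506, called under 6 of 19 alternatives). In Slc6a2 it did so by 1.47 with probe 1070279 (0.0772, called under 5 of 19) and by 0.57 with probe 5910717 (0.422).

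Of 10 genes for tetrahydrobiopterin synthesis and recycling, 7 were tested, and Spr, the sepiapterin reductase of the last step, and Gchfr, the feedback regulator of Gch1, were above background on no array. Limma called 0 of the 7 in any pair. Between dorsal and ventral 3 of the 7 had an unadjusted p below 0.05, against 22.2% of all tested probes. In the other pairs 0 did, against 16% of all between target and ventral and 9.6% between target and dorsal. Blocking on the mouse, 1 passed between dorsal and ventral, as did 1346 of all 20461 tested probes. The gene that passed was Pcbd1, an enzyme of cofactor recycling singled out after its values were seen, at 1.10 (SE 0.40, adjusted p = 0.0439 with the block and 0.144 without). The median difference of the 7 genes was 0.13 between dorsal and ventral and between target and ventral, and 0.01 between target and dorsal.

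Of 15 genes for monoamine breakdown and low-affinity uptake, 12 were tested and Maob was the 1 called when each gene is read by its brightest probe. A dimmer probe of Aldh5a1 (2070243), the dehydrogenase of succinic semialdehyde, was above background on 9 of 9 arrays and lower in dorsal than in ventral by -2.59 (limma adjusted p = 0.000435, and 0.0025 with the block) and in target than in ventral by -1.65 (0.01). The brightest Aldh5a1 probe (2490717) gave -0.47 (0.161) and 0.06 (0.916) in the same pairs. Maoa, the neighbouring oxidase that prefers serotonin and noradrenaline, read 7.77 ± 0.31 in dorsal, 7.62 ± 0.32 in ventral and 7.63 ± 0.31 in target. Its largest difference was 0.16, dorsal over ventral (SE 0.25, adjusted p = 0.773). That Maob and Maoa differ in their response between regions was not tested. Of the 7 genes of the bile acid transporter family, Slc10a3 and Slc10a4 were tested, and 4 were above background on no array. None passed, and 0 had an unadjusted p below 0.05 in each pair, against 9.6% to 22.2% of all tested probes.

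Since Maob and Slc10a4 are not particular to monoamine neurons, markers of the other cells in the tissue were read beside them, each gene by its brightest probe. Against these counts, 7.98% of all tested probes were called between dorsal and ventral, 4.06% higher and 3.92% lower in dorsal. An unadjusted p below 0.05 was found for 22.2% of all tested probes in this pair. Astrocyte genes were called in 0 of 9 between dorsal and ventral (2 at an unadjusted p below 0.05, median 0.18), and their summed normalized intensity was 16381 to 17362 in dorsal, 15740 to 16734 in ventral and 15074 to 16501 in target. Ependymal and choroid plexus genes were called in 0 of 6 (1 at an unadjusted p below 0.05, median 0.09), with sums of 814 to 975, 829 to 888 and 951 to 1289 in the same order, and Cfap126, Folr1 and Tmem212 were above background on no array. Dimmer probes of both groups were called: Slc1a2, an astrocyte glutamate transporter, by -1.22 with probe 3940064 (adjusted p = 0.00367) against -0.50 (0.128) with its brightest, and Rarres2 by -1.70 with probe 4200291 (0.00541) against 0.91 (0.215) with its brightest. Further tested probes were not called, at 0.72 for Slc1a2 (940725, limma adjusted p = 0.457) and -0.21 for Rarres2 (6060367, 0.73). The part of astrocytes and of ependymal and choroid plexus cells in the Maob difference was not tested.

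Of 11 mature oligodendrocyte genes 4 were lower in dorsal than in ventral by their brightest probes and 0 were called higher. Among the 4 were Mbp (-0.93) and Mobp (-1.14), whose dimmer tested probes were not called. These dimmer probes gave -0.17, 0.61, 0.62 and 0.04 for Mbp, and -0.02, 0.12, 0.29 and -0.31 for Mobp. The differences of 5 of the 11 lay above 0, among them Mog at 0.73 (adjusted p = 0.0813) and Mal at 0.40 (0.159). The summed intensities of the 11 did not overlap (33211 to 35196 in dorsal, 46321 to 51764 in ventral, 41189 to 44723 in target). Cldn11, a tight junction protein of myelin, differed by -1.24 between dorsal and ventral (adjusted p = 0.00338, with alternatives giving 9.86e-05 to 0.0947). Of 7 pan-neuronal genes 2 were lower in dorsal, Stmn2 by -1.17 (adjusted p = 0.0164) and Eno2 by -0.74 (0.0339), although a dimmer Stmn2 probe gave 0.68 (0.578). With median centring both calls ended (-0.75, adjusted p = 0.0809, and -0.32, adjusted p = 0.370). The Stmn2 call also ended without dorsal array 2 or 3 or ventral array 1 (0.0550 to 0.0646), and that of Eno2 without any 1 dorsal or ventral array (0.0584 to 0.119). The group had sums of 10696 to 14639 in dorsal and 14393 to 16174 in ventral. The part of either group in the differences above was not tested.

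The other marker groups were read in the same pair. Called in dorsal against ventral were 3 of 6 oligodendrocyte precursor genes (2 higher, 1 lower), 1 of 7 microglial genes (lower), 0 of 12 endothelial and mural genes (2 at an unadjusted p below 0.05) and 1 of 3 blood genes. The blood gene was Hbb-b1, a beta globin, whose probes disagreed: it was 0.82 higher in dorsal by its brightest probe (adjusted p = 0.0135), and lower by probes 1300440 (-1.17, adjusted p = 0.00776) and 6770100 (-0.92, adjusted p = 0.017). Of 8 cholinergic genes 3 were tested, and Slc18a3, Slc5a7 and Isl1 were among those above background on no array, while Chat reached it on 1, 2 and 0 arrays by its 3 probes. Prima1, the membrane anchor of acetylcholinesterase, was the 1 called. It was 1.50 higher in dorsal than in ventral (SE 0.24, adjusted p = 0.00627) and 1.36 higher in target than in ventral (adjusted p = 0.0303, and 0.0708 with the block). The target call also ended without dorsal array 2 or 3, ventral array 2 or 3 or target array 2 or 3 (0.0535 to 0.120).

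For each gene with a tested probe, the 2 tested probes of other genes with the most similar pattern over the 9 arrays were listed, by Pearson's r on log2 levels. Each gene was read by its brightest tested probe, and clone-named and predicted loci were left out of the candidates, so a closer probe may exist. Tph2 ran closest to Zfpm2 (r = 0.92) and Virma (0.91), and Slc10a4 to Pigp (0.97) and Edil3 (0.94). Maob 3310309 ran closest to Csnk2a1-rs3 and Aplp2 (0.96 each), Gch1 2320403 to Olfr55 and Gdf1 (0.93 each), Pts to Myl12b (0.95) and Olfr1225 (0.94), and Qdpr to Tsc22d1 (0.97) and Aig1 (0.96). These values are descriptions only. They are the highest of about 14800 candidates over 9 arrays from 3 mice that share normalization, and none of the closest probes belonged to another of the 9 genes. Some of the closest probes read near background, such as Olfr1225 with means of 5.78 in dorsal, 5.12 in ventral and 4.89 in target.

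**Figure D4:**
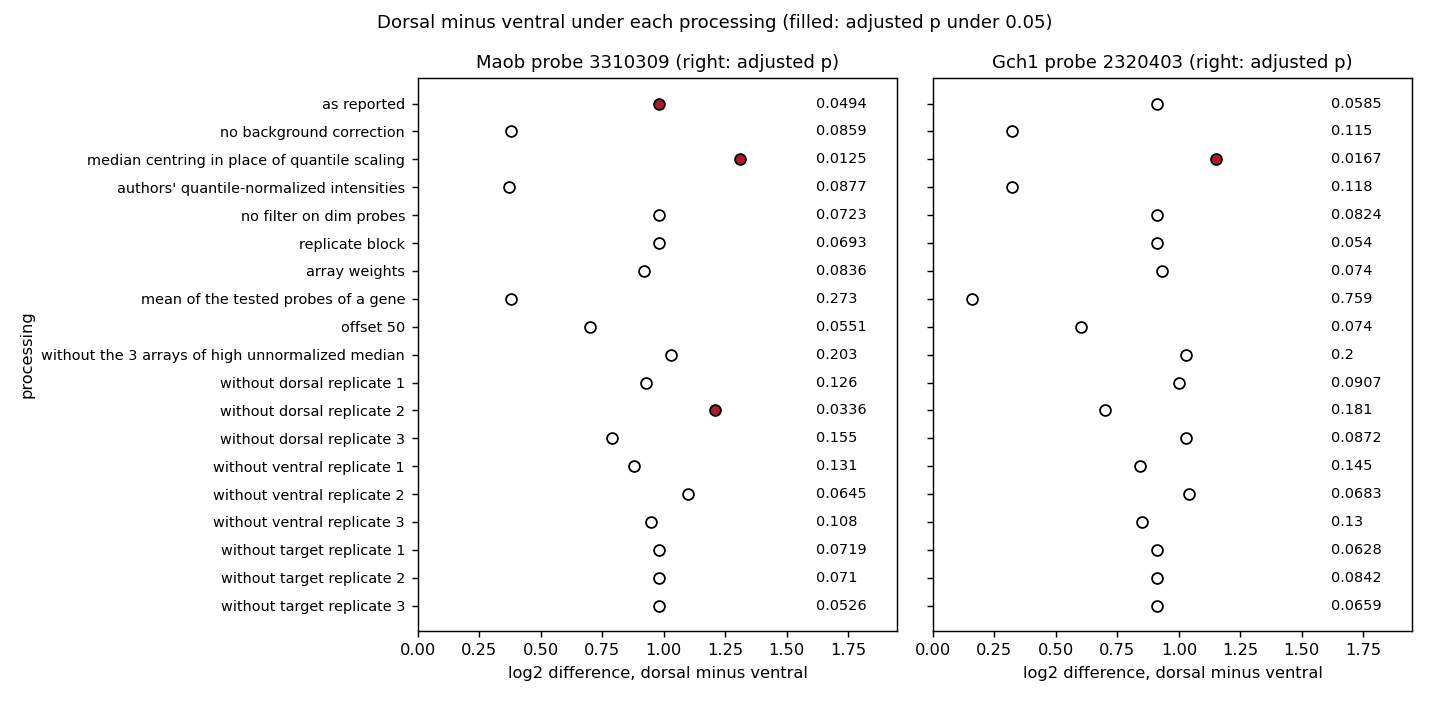
Dorsal minus ventral on the log2 scale for Maob probe 3310309 (left) and Gch1 probe 2320403 (right) under each processing, with the adjusted p printed at the right of each panel and filled points for values below 0.05. Maob passes as reported, with median centring and without dorsal replicate 2, and Gch1 passes with median centring only, while the differences are below 0.4 for both probes without background correction, with the authors' quantile-normalized intensities and with the mean of a gene's probes.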

How the data were processed

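The authors deposited bead intensities on a linear scale, both unnormalized and quantile-normalized, made with GenomeStudio 1.6.0 from Illumina MouseWG-6 arrays, per the file headers. The same deposited export holds a detection score per probe and array (1 minus the score was used as detection p), the number of beads and their SD. The deposited second intensity table equals the unnormalized one and the series matrix equals the quantile-normalized one (largest difference 0 in both). Its column names give the same mouse number in the 3 regions, which pairs the arrays. Residuals of arrays of 1 mouse correlated at -0.10 to 0.15 (median 0.03), and those of different mice in different regions at -0.16 to 0.22 (median -0.01). The pairing thus rests on the column names.

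The deposited unnormalized intensities were passed to neqc of limma 3.58.1 (R 4.3.3), which corrects background, adds an offset (16), scales by quantiles and takes log2. Region was the only term of the fit over all 9 arrays, with Benjamini-Hochberg adjustment over the 20461 tested probes. The limma fit was tested on simulated log2 values with known changes in dorsal. Background correction, quantile scaling, the detection limit and the fold bound were not simulated. Where a region had 0 of 3 arrays above background, the fold is a lower bound, taken against each dim array's limit of background or the probe's reading there, whichever was greater. This bound takes no account of the spread between arrays. A gene with several tested probes in a list is represented by the brightest. All 9 names matched the RefSeq table of assembly GRCm38.p6. The lists covered serotonin, dopamine, noradrenaline and cholinergic neurons, the cofactor, monoamine breakdown, the Slc10 family, serotonin and dopamine receptors and 8 groups of cell markers. From each list up to 2 called genes per pair, the largest first, could be named, and not all are. Ddc, Slc18a2, Th, Pitx3, Maoa, Pcbd1, Spr, Gchfr, Chat, Aldh5a1, Slc1a2, Rarres2, Mbp, Mobp, Mog, Mal, the dimmer probes of listed genes and the lists' genes below background were named outside this rule, with their values known. Members and lists were chosen with earlier results of these data known. No probe sequences were used. No slide is named in the headers, so a slide block was not run. Some genes of the lists are not reported here.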

Additional observations from a re-analysis of the deposited data

How the results depend on the processing

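The count of called probes between dorsal and ventral was 1 as reported. It was 2 with median centring in place of quantile scaling. It was 0 without background correction, with the authors' quantile-normalized intensities, without a filter on dim probes (15 probes) and with array weights. It was also 0 with the mean of a gene's probes, with an offset of 50 and without ventral arrays 1 and 2 and target array 3. The last 2 of these were chosen after seeing the data. With only probes above background on all 9 arrays, just 2 probes remained, of Pts and Qdpr. The count of 0 there has no bearing on Maob, whose probes were not in that set. The count ran from 0 to 1 when 1 array was left out. The test of any difference called 0 as reported, 2 with median centring, and 0 otherwise. With median centring the median of all tested probes was 0.36 between dorsal and ventral (0.04 as reported), so that Maob 3310309 at 1.31 and Gch1 2320403 at 1.15 lay 0.94 and 0.79 above it.

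With the mouse as a block (replicate block) the count between dorsal and ventral was 0, since the adjusted p of Maob rose to 0.0693, and no other call among the 8 probes changed. Over all tested probes the block left 3 calls between target and dorsal (12 without it), 154 between target and ventral (365) and 1346 between dorsal and ventral (1632). Counts for target against dorsal and target against ventral were 0 under every alternative. Most probes lay near background, which limits how small a difference can be seen. Leaving out the background correction, and with it the offset, changed the Maob difference from 0.98 to 0.38. The slide block was not run.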
